A study of Mus musculus with 5 samples.

Results

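The 43 genes described here act in mitosis and in its spindle checkpoint. They were taken by symbol from a fixed list of G2/M genes without the kinesin family, although Cenpe on that list is itself a kinesin motor of the kinetochore. All 43 were found among the 34590 gene symbols of the files, and all 43 passed the filter on low counts that left 16229 genes to test. RNA sequencing had been done on cortex dissected from wild-type mouse embryos of mixed strain background at E14.5, a stage of embryonic development with much neurogenesis, with no treatment. The groups were 3 libraries of medial cortex and 2 of lateral cortex, and the design names this single comparison. Because the labels do not say whether the replicates came from separate embryos, p-values measure the spread between these samples, which may be technical. The tissue was bulk, so fewer dividing cells and less of these RNAs per dividing cell cannot be told apart.

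Cells that enter mitosis activate the kinase CDK1 with its A- and B-type cyclins, condense their chromosomes and attach them to spindle microtubules through kinetochores. The spindle checkpoint holds back the anaphase-promoting complex (APC/C) until all chromosomes are attached, after which cyclins and securin are degraded, separase opens the cohesin rings and the cell divides. In the embryonic cortex radial glia divide mostly at the ventricular surface and intermediate progenitors divide away from it, while neurons have left the cycle. Transcription of many mitotic genes is held down in resting cells and raised toward G2 by factors that act on the promoter motif called CHR and on CCAAT boxes.

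All 43 mitotic genes had a positive log2 fold change of medial over lateral cortex, with a median of 0.51, which is a 1.42-fold difference. The median over all 16229 genes tested was 0.01. Of the 43, 10 were higher in medial cortex at an adjusted p under 0.05 (edgeR's quasi-likelihood test with Benjamini-Hochberg adjustment over all genes), and 0 were lower. That is 23.3% of them, against 4.62% of all genes tested that were called higher in medial cortex. The 10 were Aurka, Nusap1, Nuf2, Aurkb, Tpx2, Cenpf, Spc24, Incenp, Bub1b and Ndc80. Their adjusted p-values lay between 0.0318 and 0.0470. A further 25 genes lay between 0.0516 and 0.1, so the threshold fell inside a dense run of similar values, and Ndc80 (adjusted p = 0.0470) just inside it and Mki67 (adjusted p = 0.0516) just outside it had log2 fold changes of 0.51 and 0.67. In 41 of the 43, each medial library lay above each lateral library, against 26.5% of all genes tested. The exceptions were Spc25 and Ncapd2.

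The fold changes covered a narrow range: 34 of the 43 log2 fold changes lay between 0.4 and 0.7, 2 were above and 7 below. Lateral library 2 was the lowest of the 5 libraries for all 43 genes, and medial library 1 was the highest for 38. Taken as log2 of the level over the lateral mean, the median over the 43 genes was 0.63 in medial library 1, 0.47 in medial library 2, 0.48 in medial library 3, 0.15 in lateral library 1 and −0.17 in lateral library 2. The lateral libraries therefore lay apart from each other by about as much as the gap between lateral library 1 and the closer medial libraries. The 10 calls depended on single libraries. Without medial library 1 the same test called 12 genes, 9 of them among the 10, against 6.27% of all genes. Without medial library 2, medial library 3, lateral library 1 or lateral library 2 it called 0 of the 43, against 0.0%, 1.51%, 0.0542% and 0.0% of all genes. In these 4 fits 37, 35, 41 and 21 of the 43 still had an unadjusted p under 0.05 toward medial cortex, against 12.4%, 15.7%, 11.4% and 7.22% of all genes. DESeq2 called 36 of the 43 on all libraries, against 10.7% of all genes, and 34, 23, 33, 37 and 0 without medial libraries 1 to 3 and lateral libraries 1 and 2, against 9.17%, 6.2%, 9.65%, 7.54% and 2.63%. In all libraries 39 of the 43 had an unadjusted p under 0.05 toward medial cortex in edgeR, against 15.9% of all genes.

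**Figure D1:**
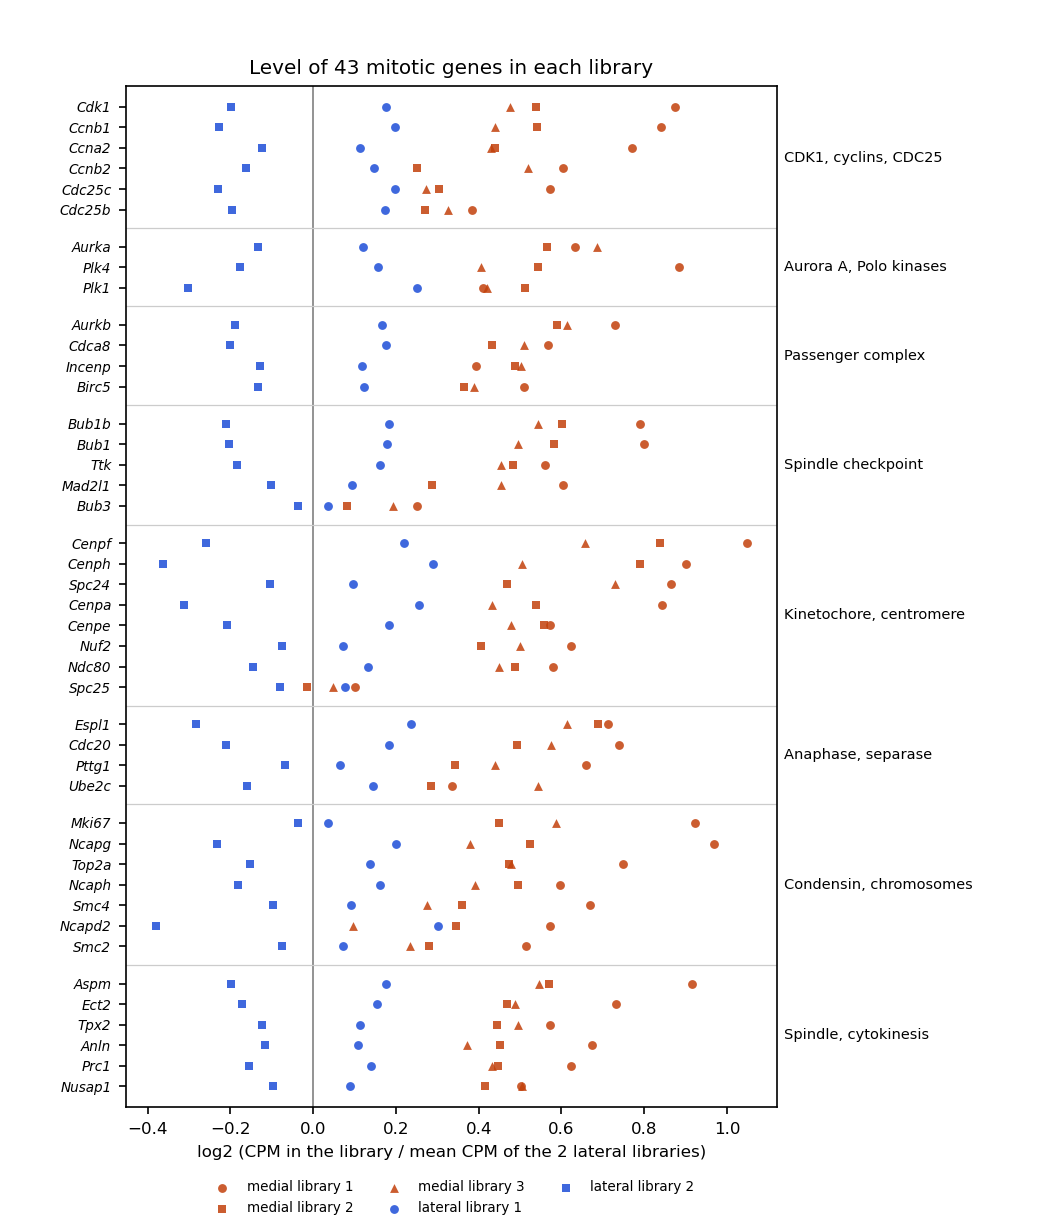
Each row is a gene, and the horizontal axis gives log2 of its CPM (read counts scaled by library size and TMM) in a library over the mean of the 2 lateral libraries; red marks medial and blue lateral libraries. The red points lie to the right of both blue points in 41 of 43 rows, and the square of lateral library 2 is leftmost in every row.

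The promoters are shown for the CHR and CCAAT letters that many of these genes, though not all, hold near the start site. RefSeq's table of windows on GRCm38.p6, each from 250 bases before to 50 after a start site, held 39 windows for 36 of the 43 genes. The CHR letters TTTGAA or TTCGAA, searched on both strands, were present in 74.4% of these windows and in 19.2% of all 32851 windows in the table. The CCAAT letters, searched as CCAAT and ATTGG and sharing no bases with the CHR letters where both are printed here, were present in 76.9% and 37.4%. Both together occurred in 69.2% and 7.52%. Over the 39 windows the 40 CHR matches had a median position of −16.5 relative to the start site and the 67 CCAAT matches a median of −74. Of the 36 genes with a window, 10 had no CHR match, 9 had no CCAAT match and 7 had neither (Nusap1, Nuf2, Ncaph, Birc5, Pttg1, Mad2l1 and Plk4). A match is a description of the letters and was not tested as a site.

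Of the 10 genes that passed, 6 had a window, and in Nusap1 and Nuf2, which have the lowest adjusted p of these after Aurka, it held neither motif. The windows of the 6 genes with the lowest adjusted p among those that held a motif are printed, Mki67 and Cdc20 among them although they did not pass, with that of Spc25, the gene with the smallest fold, added after its value was seen. They lie at chr2:172370521-172370820 (minus strand) for Aurka, chr1:189688037-189688336 (minus) for Cenpf, chr2:118597961-118598260 (plus) for Bub1b, chr17:71526808-71527107 (minus) for Ndc80, chr7:135716330-135716629 (minus) for Mki67, chr4:118437294-118437593 (minus) for Cdc20 and chr2:69206164-69206463 (minus) for Spc25, all on GRCm38.p6. Capitals mark CHR and CCAAT matches on either strand, and each sequence reads 5′ to 3′ in the direction of the gene.
Aurka: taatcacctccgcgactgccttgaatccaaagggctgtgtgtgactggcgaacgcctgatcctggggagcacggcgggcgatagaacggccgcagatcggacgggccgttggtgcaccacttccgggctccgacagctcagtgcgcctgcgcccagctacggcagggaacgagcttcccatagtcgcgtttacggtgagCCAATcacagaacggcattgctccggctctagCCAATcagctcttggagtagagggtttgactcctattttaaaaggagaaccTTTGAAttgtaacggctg
Cenpf: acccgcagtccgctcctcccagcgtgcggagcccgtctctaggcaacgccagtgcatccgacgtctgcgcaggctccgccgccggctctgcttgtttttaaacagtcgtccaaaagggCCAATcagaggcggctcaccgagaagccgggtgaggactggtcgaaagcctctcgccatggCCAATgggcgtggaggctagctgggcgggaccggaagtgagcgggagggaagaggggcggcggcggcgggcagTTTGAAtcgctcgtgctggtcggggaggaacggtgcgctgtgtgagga
Bub1b: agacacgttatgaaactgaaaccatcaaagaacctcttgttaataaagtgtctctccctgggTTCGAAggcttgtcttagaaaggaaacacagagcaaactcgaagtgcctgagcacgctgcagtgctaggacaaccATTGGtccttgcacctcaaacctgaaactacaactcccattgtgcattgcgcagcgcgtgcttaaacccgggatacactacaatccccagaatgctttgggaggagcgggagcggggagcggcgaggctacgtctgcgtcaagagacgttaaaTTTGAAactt
Ndc80: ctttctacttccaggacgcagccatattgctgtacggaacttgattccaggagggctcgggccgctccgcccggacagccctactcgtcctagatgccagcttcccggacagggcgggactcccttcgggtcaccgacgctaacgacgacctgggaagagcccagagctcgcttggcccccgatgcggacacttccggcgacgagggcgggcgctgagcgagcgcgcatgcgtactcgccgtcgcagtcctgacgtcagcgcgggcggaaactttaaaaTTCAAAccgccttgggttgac
Mki67: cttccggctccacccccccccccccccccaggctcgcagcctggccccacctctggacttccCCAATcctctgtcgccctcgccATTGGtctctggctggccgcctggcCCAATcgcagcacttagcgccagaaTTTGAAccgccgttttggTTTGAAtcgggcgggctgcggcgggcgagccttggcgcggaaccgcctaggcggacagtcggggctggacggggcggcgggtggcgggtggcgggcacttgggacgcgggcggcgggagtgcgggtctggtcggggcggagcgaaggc
Cdc20: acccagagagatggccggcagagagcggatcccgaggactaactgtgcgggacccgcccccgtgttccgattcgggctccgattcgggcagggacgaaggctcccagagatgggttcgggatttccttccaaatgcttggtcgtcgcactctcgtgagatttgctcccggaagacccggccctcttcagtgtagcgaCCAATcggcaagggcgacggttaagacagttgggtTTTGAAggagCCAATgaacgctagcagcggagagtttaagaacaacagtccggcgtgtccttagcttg
Spc25: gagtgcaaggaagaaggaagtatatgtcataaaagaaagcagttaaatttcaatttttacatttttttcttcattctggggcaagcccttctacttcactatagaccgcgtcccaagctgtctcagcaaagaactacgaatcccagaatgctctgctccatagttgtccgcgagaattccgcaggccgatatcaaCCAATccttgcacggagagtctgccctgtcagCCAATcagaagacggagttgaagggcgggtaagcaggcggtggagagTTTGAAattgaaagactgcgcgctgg
In Aurka and in Spc25 the layout was alike, with 2 CCAAT matches before the start site, at −51 and −19 in Aurka and at −55 and −23 in Spc25, and a CHR match after it, at 33 and 25. Their log2 fold changes were 0.63 and 0.04. Among the 26 genes with a CHR match the median log2 fold change was 0.54, and among the 10 without it was 0.50, with no test made of that difference.

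None of the 6 genes of CDK1, its cyclins and its activating phosphatases passed the threshold. Over all genes tested 4.62% were called higher in medial cortex, and with 6 genes a count of 0 cannot be told from that share. In all 6 each medial library lay above each lateral library, against 26.5% of all genes tested. Cdk1, the kinase that drives entry into mitosis, had 170, 135 and 129 CPM in medial libraries 1 to 3 and 105 and 80.8 CPM in lateral libraries 1 and 2. The 3 medial values all lay above the lateral ones, with the largest in medial library 1. Values are in CPM, read counts scaled to library size with the TMM factors, and can be compared across libraries but not between genes of different length. Its log2 fold change was 0.64 (adjusted p = 0.0613, SE 0.17). Ccnb1, the main mitotic cyclin, had 257, 209 and 194 CPM against 164 and 122 CPM and a log2 fold change of 0.62 (adjusted p = 0.0712, SE 0.17). The other cyclins, Ccna2 and Ccnb2, had log2 fold changes of 0.56 and 0.47. The CDC25 phosphatases, which remove inhibitory phosphates from CDK1, were lower in this order, with Cdc25c at 0.39 and Cdc25b at 0.33. Cdc25b had 56.8, 52.5 and 54.5 CPM against 49.0 and 37.9 CPM, so lateral library 1 lay close below the medial range. Without lateral library 2 the log2 fold change of Cdc25b fell to 0.15 and that of Cdc25c to 0.19, and without lateral library 1 they were 0.52 and 0.61.

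Of the 3 Aurora A and Polo kinases, Aurka was higher in medial cortex, against 4.62% of all genes tested, and had the lowest adjusted p of all 43. Aurka, which matures centrosomes and builds the spindle poles, had 66.7, 63.6 and 69.3 CPM in the medial and 46.8 and 39.2 CPM in the lateral libraries. The medial values lay within a narrow band (SD 2.81 CPM, n = 3) well above the lateral pair (SD 5.35 CPM, n = 2), and the log2 fold change was 0.63 (adjusted p = 0.0318, SE 0.10). Plk4, the kinase that starts centriole duplication, had a log2 fold change of 0.62 (adjusted p = 0.0700, SE 0.17). Plk1, which acts at centrosomes, kinetochores and the midbody, had 62.5, 67.0 and 62.9 CPM against 55.9 and 38.1 CPM. Its medial libraries were alike and its lateral ones far apart, and its log2 fold change of 0.45 (adjusted p = 0.128) was 0.20 without lateral library 2 and 0.75 without lateral library 1.

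Of 4 genes of the chromosomal passenger complex 2 were higher in medial cortex, against 4.62% of all genes tested. In all 4 each medial library lay above each lateral library, against 26.5% of all genes tested. The complex corrects faulty attachments and later guides cytokinesis. Its kinase Aurkb had 83.0, 75.3 and 76.5 CPM against 56.2 and 43.9 CPM, a log2 fold change of 0.64 (adjusted p = 0.0382, SE 0.13). Incenp, the scaffold, had 133, 142 and 144 CPM against 110 and 92.7 CPM, a log2 fold change of 0.46 (adjusted p = 0.0445, SE 0.10). For Incenp medial library 1 was the lowest of the medial libraries, unlike for most of the 43. The targeting subunits did not pass: Birc5 (survivin) had 59.7, 54.1 and 55.0 CPM against 45.7 and 38.3 CPM and a log2 fold change of 0.42 (adjusted p = 0.0593). Cdca8 (borealin) had a log2 fold change of 0.50 (adjusted p = 0.0580), and 0.33 without lateral library 2. In the fit of all libraries its log2 fold change was larger than that of Incenp, which passed.

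In the spindle checkpoint Bub1b was the gene that passed of 5, against 4.62% of all genes tested that were called higher. Bub1b, which encodes BUBR1, a part of the complex that inhibits the APC/C, had 233, 205 and 196 CPM in the medial and 153 and 117 CPM in the lateral libraries. The groups were well apart, and the log2 fold change was 0.65 (adjusted p = 0.0467, SE 0.14). The kinase Bub1 had nearly the same log2 fold change of 0.63 (adjusted p = 0.0519) without passing, followed by the kinase Ttk at 0.50 (adjusted p = 0.0543) and Mad2l1, the MAD2 protein, at 0.45 (adjusted p = 0.0643). Bub3, the binding partner of both BUB1 and BUBR1, was set apart in size. It had 152, 135 and 146 CPM against 131 and 125 CPM, a log2 fold change of 0.18 (adjusted p = 0.197, SE 0.08), with medial library 2 close above lateral library 1.

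Kinetochore and centromere genes held both the largest and the smallest difference. Of the 8, 4 were higher in medial cortex, against 4.62% of all genes tested. Cenpf, a large protein of the outer kinetochore, had 437, 378 and 334 CPM against 246 and 176 CPM. The means were 383 ± 52.1 CPM over the medial libraries (SD, n = 3) and 211 ± 49.3 CPM over the lateral ones (SD, n = 2). Its log2 fold change of 0.86 (adjusted p = 0.0443, SE 0.18) was the largest of the 43. The NDC80 complex, which grips the microtubule end, has 4 subunits, and 3 of them were higher in medial cortex. Nuf2 had 97.7, 84.1 and 89.9 CPM against 66.7 and 60.3 CPM, a log2 fold change of 0.51 (adjusted p = 0.0375, SE 0.10). Ndc80 itself, its partner in the microtubule-binding end, had the same log2 fold change of 0.51 (adjusted p = 0.0470, SE 0.11). Spc24 and Spc25 form the other end of the complex, which anchors it to the kinetochore. Spc24 had 36.0, 27.3 and 32.8 CPM against 21.1 and 18.4 CPM, a log2 fold change of 0.70 (adjusted p = 0.0443, SE 0.15).

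Spc25 had 62.2, 57.3 and 59.9 CPM in the medial and 61.1 and 54.8 CPM in the lateral libraries, so the groups overlapped. Its log2 fold change was 0.04 (adjusted p = 0.763, SE 0.09), and −0.034 without lateral library 2 and 0.12 without lateral library 1. Spc25 was thus the sole member whose direction turned when a library was left out, while its 3 partners were called in the same fit of all libraries. The difference between Spc25 and its partners was not tested. Cenpa, the histone variant that marks the centromere, had a log2 fold change of 0.61 (adjusted p = 0.10, SE 0.20), and values of 0.92 and 0.36 without lateral libraries 1 and 2. The motor Cenpe had 0.54 (adjusted p = 0.0522), which was 0.35 without lateral library 2. The inner kinetochore subunit Cenph, with the fewest reads of the 43 (584 in lateral library 2), had a log2 fold change of 0.74 (adjusted p = 0.0862, SE 0.23) and 0.45 without that library.

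**Figure D2:**
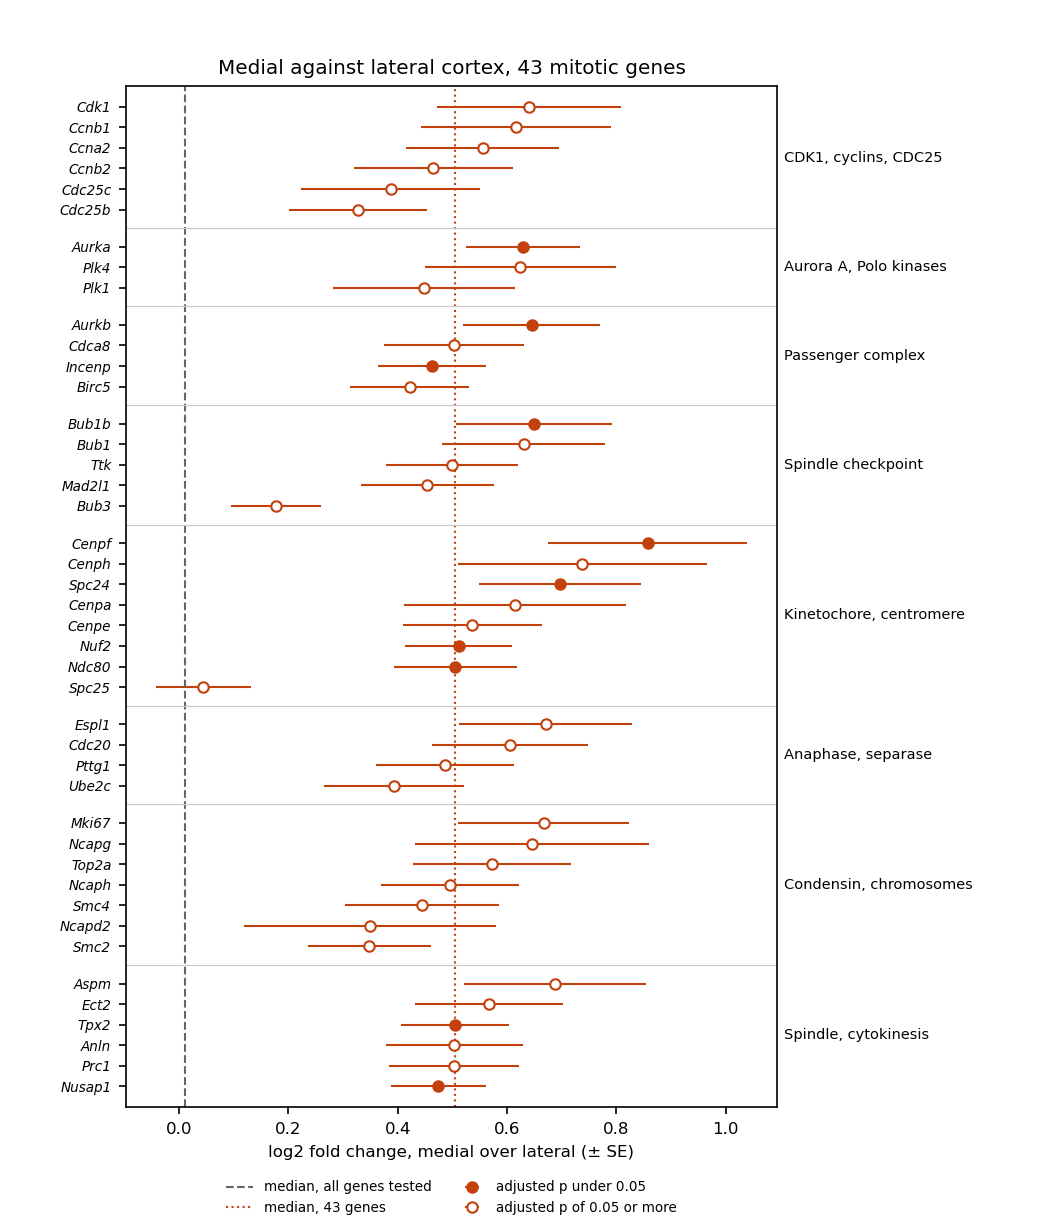
Points give the log2 fold change of medial over lateral cortex for each gene with its standard error, filled where the adjusted p was under 0.05; the dashed line marks the median over all genes tested (0.01) and the dotted line that of the 43 genes (0.51). Spc25 at 0.04 and Bub3 at 0.18 lie closest to the dashed line.

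The 4 genes of anaphase onset did not pass, against 4.62% of all genes tested that were called higher, a share that so few genes cannot be told from. All 4 were separate between the groups, against 26.5% of all genes tested. Espl1 encodes separase, the protease that cuts cohesin, and had 78.6, 77.4 and 73.4 CPM against 56.5 and 39.4 CPM. Its medial libraries were close together and its lateral ones were not, which left a log2 fold change of 0.67 with an SE of 0.16 (adjusted p = 0.0519), and 0.43 without lateral library 2. Pttg1, securin, which blocks separase until anaphase, had a log2 fold change of 0.49 (adjusted p = 0.0608). Cdc20, the activator of the APC/C that the checkpoint inhibits, had one of 0.61 (adjusted p = 0.0518). Ube2c, the ubiquitin-conjugating enzyme that works with the APC/C, had 118, 114 and 136 CPM against 103 and 83.7 CPM. The highest value was in medial library 3 here, and its log2 fold change of 0.39 (adjusted p = 0.0975, SE 0.13) was 0.25 without lateral library 2.

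The 7 genes of chromosome structure likewise did not pass, against 4.62% of all genes tested that were called higher. With 7 genes, a count of 0 cannot be told from that share. Mki67, which coats mitotic chromosomes and marks cycling cells, had 1035, 746 and 820 CPM in the medial and 560 and 533 CPM in the lateral libraries. Here the lateral libraries were close together and medial library 1 stood above the others, and the log2 fold change was 0.67 (adjusted p = 0.0516, SE 0.16). Top2a, the topoisomerase that untangles sister chromatids, had 1234, 1019 and 1022 CPM against 807 and 661 CPM and a log2 fold change of 0.57 (adjusted p = 0.0573, SE 0.14). Condensin subunits ranged more widely. Among those of condensin I, Ncapg had a log2 fold change of 0.65 (adjusted p = 0.101), Ncaph 0.50 (adjusted p = 0.0584) and Ncapd2 0.35 (adjusted p = 0.344). The core ATPases shared by both condensins, Smc4 and Smc2, had 0.44 (adjusted p = 0.0912) and 0.35 (adjusted p = 0.0949). Smc2 had 290, 247 and 239 CPM against 214 and 193 CPM, with no overlap. Ncapd2, whose library values are given because its groups overlapped, had 285, 243 and 205 CPM against 236 and 147 CPM. It had the largest SE of the 43 (0.23), and its log2 fold change moved to 0.05 without lateral library 2, to 0.73 without lateral library 1 and to 0.23 without medial library 1.

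Among 6 genes of the spindle, its midzone and cytokinesis, Nusap1 and Tpx2 were higher in medial cortex, against 4.62% of all genes tested. Nusap1, which bundles spindle microtubules around chromosomes, had 191, 180 and 192 CPM against 144 and 126 CPM. The spread in both groups was small, and a log2 fold change of 0.47 (SE 0.09) gave an adjusted p of 0.0357. Tpx2, the activator of Aurora A on the spindle, had 272, 248 and 257 CPM against 198 and 168 CPM and a log2 fold change of 0.50 (adjusted p = 0.0392, SE 0.10). Aspm, a spindle pole protein whose loss causes microcephaly, had 333, 262 and 257 CPM against 199 and 154 CPM. Its log2 fold change of 0.69 (SE 0.17) was larger than those of both called genes, but medial library 1 stood above the other medial libraries and the adjusted p was 0.0537. Prc1, the crosslinker of the midzone, had a log2 fold change of 0.50 (adjusted p = 0.0519), Ect2, which activates RhoA for the cleavage furrow, 0.57 (adjusted p = 0.0523), and the furrow protein Anln 0.50 (adjusted p = 0.0562).

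The libraries did not mark strand, so where genes share a stretch of genome their reads cannot be told apart. In RefSeq on GRCm38.p6, 16 of the 43 gene spans overlap another annotated gene, and 4 of these are among the 10 that passed. They are Aurka with Cstf1, Nusap1 with Oip5 and a pseudogene, Incenp with a pseudogene and Tpx2 with a microRNA gene. Spc25 had no such overlap.

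Other genes of mitosis, in 4 lists of 86 genes found in the files, gave 16 higher and 0 lower in medial cortex. Over all genes tested 4.62% were called higher, and this share stands beside each list count below. The median log2 fold change of the 86 was 0.45. The 86 genes are given by list below, with Kntc1 counted in both the kinetochore and the spindle list. Of 26 further kinetochore and checkpoint genes 4 were higher, namely Sgol1 (log2 fold change 0.67), which protects centromeric cohesin, and the kinetochore genes Mis12 (0.42), Casc5 (0.74) and Zwilch (0.72), and the list median was 0.49. Of 23 spindle and cytokinesis genes 6 were higher, with a median of 0.54, and those with the lowest adjusted p were Iqgap3 (0.67), Ckap2l (0.50), Dlgap5 (0.49) and Depdc1a (0.89). Of 23 genes of the APC/C and of mitotic entry 4 were higher, with a median of 0.21. These were the APC/C inhibitor Fbxo5 (0.59), the kinases Melk (0.63) and Wee1 (0.66), the latter an inhibitor of CDK1, and the CDK1-binding Cks1b (0.52). Of 15 genes of condensin II, cohesin and related factors 2 were higher, Cdca5 (0.67), which encodes sororin, and Cdca2 (0.53), and the median was 0.18. With 15 genes, 2 calls cannot be told from the share over all genes.

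The low medians of the last 2 lists came with subunits that had small differences, which were picked out after their values were seen. For 9 core subunits of the APC/C the log2 fold changes ran from −0.06 to 0.21, with a median of 0.05 and 0 called. For 6 genes of the cohesin ring and its loader they ran from −0.01 to 0.25, with a median of 0.10 and 0 called. In the kinetochore and spindle lists Cenpt (−0.25, adjusted p = 0.140), Zwint (−0.12, adjusted p = 0.271), Mad1l1 (0.01, adjusted p = 0.954) and the spindle pole protein Numa1 (−0.37, adjusted p = 0.0708) also stood apart from the list medians and did not pass. Of 13 centrosome genes linked to microcephaly or to its partners, Stil (0.67) and Nde1 (0.52) were higher, and the median was 0.25. With 13 genes, 2 calls cannot be told from the 4.62% of all genes tested that were called higher.

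Regulators of mitotic transcription were mixed in direction, with 13 of 19 log2 fold changes above 0, against 51.5% of all genes tested. Of 19, Mybl2 (log2 fold change 0.65, adjusted p = 0.0348), the B-MYB factor that works through CHR motifs with the MuvB complex, and E2f3 (0.77, adjusted p = 0.0400) were higher in medial cortex. Nfyb (−0.48, adjusted p = 0.0347), a subunit of the factor NF-Y that binds CCAAT boxes, was lower. The NF-Y subunits Nfya (−0.43, adjusted p = 0.0806) and Nfyc (−0.15, adjusted p = 0.288) did not pass. Over all genes tested 4.62% were called higher and 5.1% lower. With 19 genes, calls of 2 and 1 cannot be told from those shares. The list median was 0.14.

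**Figure D3:**
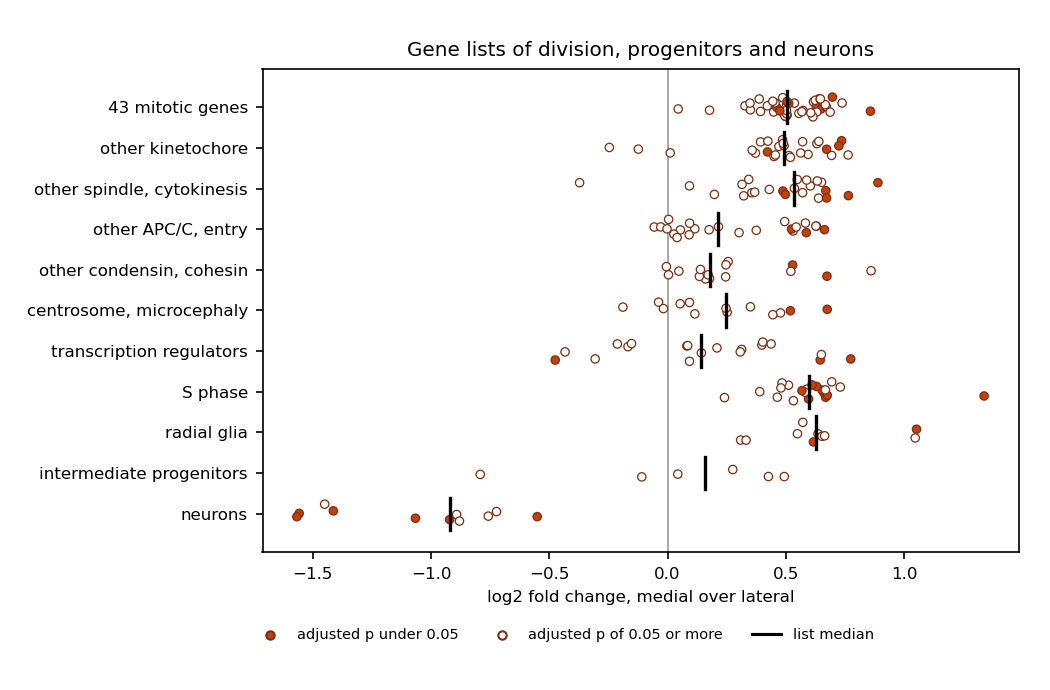
Each point is the log2 fold change of a gene in medial over lateral cortex, filled where its adjusted p was under 0.05, and black bars mark list medians. The medians are 0.51 for the 43 mitotic genes, 0.60 for S phase, 0.63 for radial glia and −0.92 for neurons.

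Genes of DNA synthesis and of radial glia had differences of similar size. Of 21 S-phase genes 9 were higher and 0 lower, against 4.62% of all genes tested that were called higher. The median log2 fold change of the 21 was 0.60. The lowest adjusted p-values were those of the cyclin Ccne1 (1.34), Rrm2 (0.63), Tyms (0.68) and Rrm1 (0.60). The summed level of the 43 mitotic genes was 8496, 7152 and 7128 CPM in medial libraries 1 to 3 and 5710 and 4666 CPM in lateral libraries 1 and 2, so the medial mean was 1.46 times the lateral mean. Divided by the summed level of the 21 S-phase genes, it was 2.32, 2.44 and 2.43 in the medial and 2.50 and 2.43 in the lateral libraries. The ratio to the sum of 10 radial glia markers was 2.20, 2.12 and 2.23 in the medial and 2.27 and 2.19 in the lateral libraries. In both ratios the groups overlapped, and the libraries did not follow the order seen in the mitotic sum. In such sums abundant and long transcripts weigh most, and no test was made on them.

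**Figure D4:**
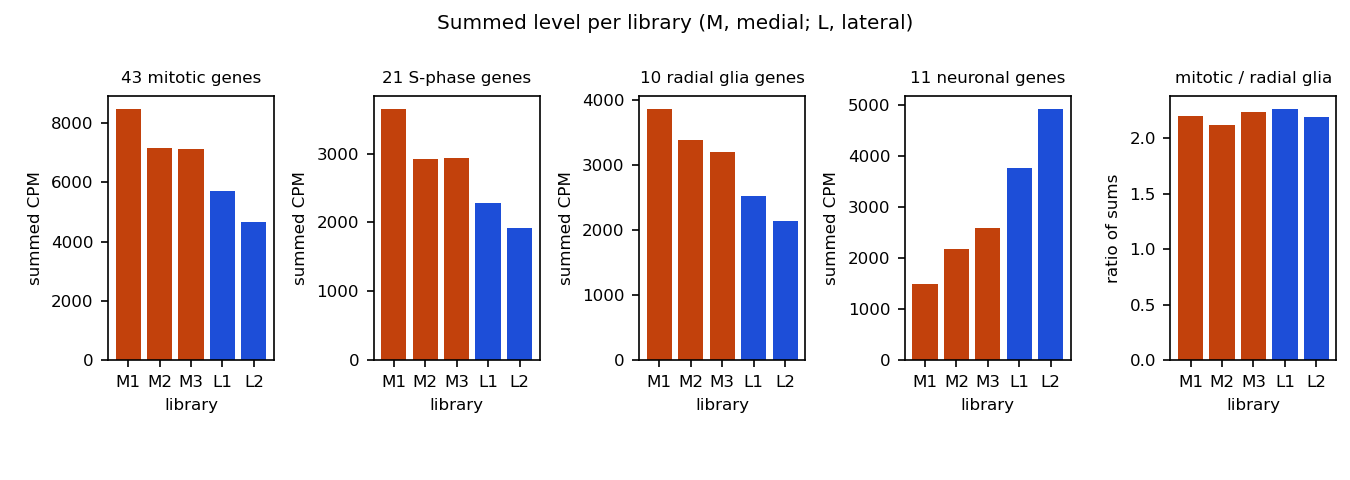
Bars give the summed CPM of each list in medial libraries M1 to M3 and lateral libraries L1 and L2, and in the last panel the ratio of the mitotic sum to the radial glia sum. The mitotic sum falls from 8496 CPM in M1 to 4666 CPM in L2, while the ratio stays between 2.12 and 2.27.

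Markers of other cells moved with the regions too, and their part in the mitotic values was not tested. Over all genes tested 4.62% were called higher and 5.1% lower in medial cortex. Of the 10 radial glia markers 2 were higher, Hes1 (log2 fold change 1.05) and Nes (0.62), named because they passed. Pax6 (0.31) and Sox2 (0.64) did not pass. All 10 log2 fold changes were positive, and 8 had an unadjusted p under 0.05 in edgeR, against 15.9% of all genes toward medial cortex. The sums over the 10 were 3193 to 3869 CPM in medial and 2131 to 2518 CPM in lateral libraries. Of 11 neuronal markers 6 were lower and 0 higher in medial cortex, with sums of 1482 to 2587 against 3754 to 4924 CPM, and Tubb3 and Dcx had log2 fold changes of −0.76 (not passed) and −0.92. The lowest neuronal sum was in medial library 1 and the highest in lateral library 2, the libraries at the upper and lower end for the mitotic genes. Of 6 markers of intermediate progenitors, the other dividing cells of the cortex, 0 passed in edgeR, with sums of 692 to 907 against 743 to 886 CPM and overlapping groups. Eomes and Neurog2 had log2 fold changes of −0.11 and 0.04. Of these 6 markers 2 had an unadjusted p under 0.05, in opposite directions, and are named for that after their values were seen. Insm1 had the lowest p of the list, with 58.2, 63.6 and 91.3 CPM in medial and 122 and 124 CPM in lateral libraries and a log2 fold change of −0.79 (adjusted p = 0.0544). Btg2 had 0.43 (adjusted p = 0.0710). The groups did not overlap for either, against 26.5% of all genes tested with medial cortex above and 26.7% with it below.

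Further markers were those of meninges, hem, blood, vessels, microglia and GABAergic neurons, and their part was not tested either. The counts called stand against 4.62% of all genes tested called higher and 5.1% called lower in medial cortex. Of 7 markers of the meninges 6 were tested and 0 passed in edgeR (1 had an unadjusted p under 0.05 toward medial cortex and 0 toward lateral), but their sum reached 305 CPM in medial library 1, against 24.3 to 36.1 CPM elsewhere. There Col1a1 was at 97.2 CPM and Col1a2 at 88.4 CPM, against at most 4.62 and 2.43 CPM in the remaining libraries. Hem and choroid plexus markers gave 5 of 7 higher, with sums of 171, 50.8 and 44.9 CPM against 1.79 and 11.4 CPM. Wnt8b was at 117, 30.5 and 22.1 CPM in medial and at 0.213 and 0.0371 CPM in lateral cortex, and Wnt3a at 11.9, 3.81 and 2.95 against 0.0304 and 0.0743 CPM. Ttr, a choroid plexus marker named after its values were seen, had overlapping groups instead, with 0.659, 2.27 and 8.87 CPM in medial and 0.943 and 10.4 CPM in lateral libraries and a log2 fold change of −0.46 (adjusted p = 0.820). It made up most of the 11.4 CPM of lateral library 2. Medial library 1 was highest for both lists. Of 9 erythroid markers Hbb-y was lower (log2 fold change −0.62) and Hbb-bh1 had −0.62 without passing. All 9 log2 fold changes were negative, from −0.82 to −0.11. The sums over the 9 were 534 to 790 CPM in medial and 764 to 852 CPM in lateral libraries. Of 8 endothelial markers Cdh5 was lower (−0.58) and Pecam1 had −0.43 without passing. All 8 log2 fold changes were negative, from −0.64 to −0.19. In 7 of the 8 each medial library lay below each lateral library, against 26.7% of all genes tested. The sums over the 8 were 93.7 to 108 against 124 to 140 CPM. Of 8 microglial markers 0 passed in edgeR (0 also had an unadjusted p under 0.05 in either direction), among them Csf1r (0.42) and Cx3cr1 (0.73), with sums of 30.9 to 65.5 against 22.9 to 31.9 CPM. All 8 log2 fold changes were positive, from 0.11 to 1.05, and the highest sum was in medial library 1. Of 7 GABAergic markers 6 were lower, Gad1 and Gad2 among them (−3.44 and −3.41), with sums of 2.59 to 16.4 against 64.7 to 93.6 CPM. No marker of these lists had 0 reads in all libraries.

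The total of gene reads ran from 27406370 to 36460274 in medial and from 56147129 to 66981952 in lateral libraries, so depth went with region. Each of the 43 genes had at least 584 reads in each library, at which the counting error is at most 4.14%, covering counting error only. The spread between libraries was larger, with a median coefficient of variation over the 43 genes of 10.5% in medial and 15.8% in lateral libraries. With all libraries thinned to the smallest, 12 of the 43 were called, against 4.27% of all genes. Scaling by DESeq2's size factors, by upper quartiles or by library size gave 10, 15 and 12, against 4.64%, 5.14% and 5.19%. Keeping genes with at least 1 or at least 5 CPM in 2 libraries gave 17 and 17, against 5.75% and 5.99%, and no filter gave 2, against 1.69%. Of those 2, Aurka was among the 10 called in the main fit and Mki67 was not. The older edgeR form and limma-voom gave 10 and 15, against 4.26% and 4.73%.

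**Figure D5:**
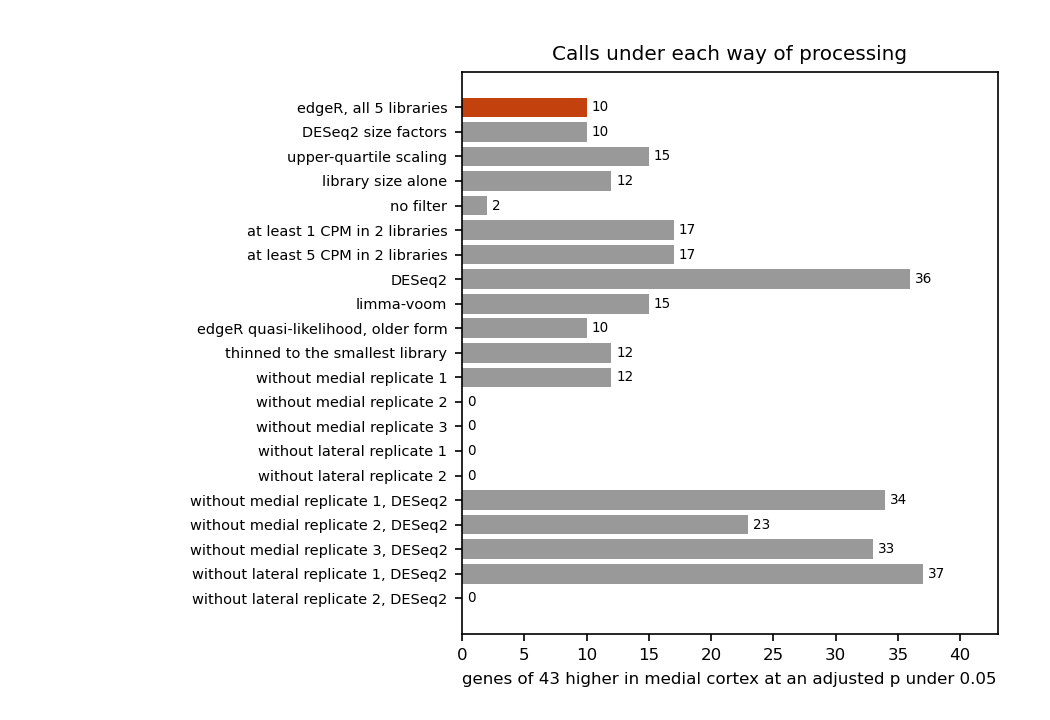
Bars count how many of the 43 genes were higher in medial cortex at an adjusted p under 0.05 under each way of processing the counts, with the fit of all 5 libraries in red. The count is 10 in that fit, between 2 and 36 under the other settings shown that keep all libraries, and 0 in edgeR without medial library 2 or 3 or either lateral library and in DESeq2 without lateral library 2.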

How the data were processed

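PolyA RNA libraries made without marking strand were sequenced, per the labels' protocols. The authors deposited raw read counts per gene symbol. The submitters' processing notes name BWA, STAR, HTSeq and mm9, with no roles or versions. CPM values were computed here from these counts. The 5 classes of reads assigned to no gene, 23.1% to 28.7% of each file, were left out.

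After filterByExpr (minimum count 10, minimum total 15) and TMM scaling, region was fitted as a single factor by quasi-likelihood (edgeR 4.0.16, newer form, run under R 4.3.3), leaving 3 residual degrees of freedom. Benjamini-Hochberg adjustment ran over all 16229 genes, and the threshold was 0.05. The SE is the log2 fold change over the root of F. DESeq2 1.42.0 and limma-voom (limma 3.58.1) were alternatives. Scripts were tested on simulated data.

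Members and lists were chosen with earlier results of these data known. All 43 genes are named. Library values are given in each role for up to 2 called genes with the lowest adjusted p, the smallest and largest fold, and 6 genes always shown (Mki67, Top2a, Cdk1, Ccnb1, Aspm, Bub1b). Up to 4 called genes are named per pathway list, and the first 2 per marker list.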

Additional observations from a re-analysis of the deposited data

How the results depend on the processing

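All 43 log2 fold changes stayed positive under every alternative run, except Spc25 without lateral library 2 (−0.034 in edgeR, −0.038 in DESeq2, and 0.12 in edgeR without lateral library 1), and their median ranged from 0.38 to 0.70. The number of the 43 called higher in medial cortex was 10 in the test of all libraries. It was 2 with no low-count filter, namely Aurka, which was among the 10, and Mki67, which was not. It was 17 with a filter at 1 CPM or at 5 CPM in 2 libraries, and 36 in DESeq2. With the other scalings, limma-voom, the older edgeR form and thinning it was between 10 and 15. Without a library it ranged from 0 to 12 in edgeR and from 0 to 37 in DESeq2 (34, 23 and 33 without medial libraries 1, 2 and 3), the latter chosen after seeing the data, and 0 of the 43 were called lower in any setting. Over all genes, 750 were higher and 827 lower. With no filter 496 were higher, and DESeq2 gave 1737 and 1790. Leaving out a library gave from 0 to 1027 higher and from 0 to 1137 lower in edgeR, and from 384 to 1509 higher and 280 to 1626 lower in DESeq2 (1415 higher without medial library 1, 1599 lower without medial library 3). The cause of these shifts was not tested. The fits without a library also had fewer samples.

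The labels number replicates in both regions without saying that a number marks a shared embryo, and deviations of same-numbered libraries correlated at 0.09 and −0.38 over 16229 genes. With the replicate number as a block 13 of the 43 were called, 3 of them among the 10, and 454 genes (2.8%) were higher overall. Libraries that share a tag in the deposited names correlated at 0.38 and 0.43. The deviations of the 2 lateral libraries from their own mean are mirror images. Each medial library therefore correlates with them at values of equal size and opposite sign. The −0.38 by number and the 0.38 by tag are thus the same result for medial library 2, not separate evidence. With that tag as the replicate block 40 of the 43 were called, including all 10, and 2634 genes (16.2%) were higher and 2727 (16.8%) lower. Both block fits left fewer residual degrees of freedom than the 3 of the main fit. A library alone in its block adds nothing to the difference between regions. That was medial library 3 by number and medial library 1 by tag. The counts from these fits therefore rest on few libraries. The pairing by tag is a hint from names, not a stated design, and these correlations cannot settle it. No list was tested as a set.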
